A study of Mus musculus with 36 samples.

Results

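6 genes of class I antigen presentation and of the proteasome, B2m, H2-T24, Tap1, Psmb9, Psma2 and Ubd, were followed through the mouse colon and 2 kinds of colon tumour. They were taken by their symbols and make up 6 of the 988 genes on a targeted immuno-oncology sequencing panel. These 6 and the gene lists used below were chosen with earlier results of these data known. Counts of them that passed therefore only describe these data. All 6 were counted in every library, and all 6 passed the low-count filter in each of the comparisons below.

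Class I molecules carry peptides from inside the cell to its surface, where CD8 T cells and natural killer cells inspect them. The proteasome cuts worn or foreign proteins into peptides, a transporter in the membrane of the endoplasmic reticulum takes the peptides in, and a heavy chain folds there around each peptide together with a light chain. Interferons raise most of this machinery and exchange catalytic subunits of the standard proteasome for inducible ones, which gives the immunoproteasome. B2m encodes the light chain that all classical class I molecules share. H2-T24 encodes a class I-like heavy chain of the mouse T region. Tap1 encodes a subunit of the peptide transporter. Psmb9 encodes an inducible catalytic subunit of the immunoproteasome, and Psma2 a structural alpha subunit that standard proteasome and immunoproteasome both contain. Ubd encodes FAT10, a ubiquitin-like protein that marks proteins for the proteasome and that interferon-gamma and tumour necrosis factor induce together.

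The study asked what mast cells do in colon tumorigenesis, and 34 libraries of its 36 samples, in 9 groups, were analysed. Kit sash mice (C57BL/6 with the W-sh allele of Kit, a receptor that mast cells need) and wild-type C57BL/6 mice received the colon carcinogen azoxymethane (AOM). Tumours of mice aged 32 weeks came from 5 sash and 5 wild-type samples, after 6 weekly injections of 10 mg/kg and a further 18 weeks. Preneoplastic lesions of mice aged 14 weeks came from 3 sash and 3 wild-type samples, after 3 injections over 3 weeks and 3 more weeks. In a second set of lesions, all of wild-type mice of that age, 3 samples had cromolyn, a drug that blocks mast cell degranulation, together with AOM, 3 had cromolyn for the 3 weeks after AOM, and 3 had AOM only. The last experiment grew tumours from MC-38, a C57BL/6 mouse colon carcinoma line, in saline-treated hosts, with 5 sash and 4 wild-type samples, the genotype in the labels being taken as the host's. The sash allele is not specific to mast cells, because other cells such as the pacemaker cells of the gut also use Kit. Each library is bulk RNA, so fewer cells of a type and less RNA per cell cannot be told apart. Nothing in the labels says that the samples of a group came from separate mice, so p-values measure the spread between these samples only.

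Library totals were 449880 to 1264354 counts in the 25 AOM libraries and 480136 to 986415 in the 9 MC-38 libraries. Levels are CPM, which are counts per 1e6 counts of the library, after TMM scaling within each table, and since the tables were scaled separately, no test crosses them. Differences are on the log2 scale, and a range that follows a difference in parentheses is its 95% interval. Kit averaged 127 ± 14.5 CPM in sash lesions and 432 ± 89.2 CPM in wild-type lesions. In tumours it had 77.8, 49.7, 99.3, 80.5 and 67.7 CPM in sash, against 95.3, 334, 136, 476 and 124 CPM in wild type, where replicates 2 and 4 stood highest and replicate 1 lay within the sash range. In MC-38 tumours Kit was low in both hosts, at 2.05, 23.2, 13.6, 17.7 and 8.08 CPM in sash hosts and 8.11, 18.1, 8.45 and 5.97 CPM in wild-type hosts. The summed level of 7 mast cell markers on the panel, of which Kit is 1 and made up most in lesions, was 150.0 to 164 CPM in sash lesions and 393 to 551 CPM in wild-type lesions, with Cpa3 and Ms4a2 at 0 in every sash lesion and Tpsab1 at 0 in every sash and wild-type lesion of that set. It was 176 to 426 CPM in sash AOM tumours and 230.4 to 603 CPM in wild-type AOM tumours, which overlap, and 10.3 to 34.9 CPM in sash MC-38 tumours and 391 to 1163 CPM in wild-type MC-38 tumours. The overlap in AOM tumours mixes directions: of 5 markers tested there, 4 lay below 0 in sash and 1 above, and none passed. Hdc and Cpa3, named for their opposite directions, averaged 185 ± 74.1 and 3.37 ± 3.93 CPM in sash AOM tumours. In wild-type AOM tumours they averaged 60.1 ± 20.2 and 40.8 ± 35.6 CPM. The colon was checked by the 3 epithelial markers on the panel, Epcam, Car4 and Tmigd1, whose sum was 20991 to 90094 CPM in the AOM libraries. In the MC-38 tumours it was only 24.3 to 189 CPM, so the epithelial markers are nearly absent there.

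The promoters of the genes are shown because Tap1 and Psmb9, whose profiles over the libraries were the most alike among the 6, share most of 1 window, and because only some of the others hold motifs of interferon or NF-kappaB signalling. RefSeq promoters of the build GRCm38.p6, from 250 bases before to 50 bases after each start site, were found for 5 of the 6 genes, H2-T24 not among them. The submitters' processing notes name the older build mm9, so these coordinates belong to GRCm38.p6 alone. The 4 windows below run 5′ to 3′ along the gene's own strand, and capitals mark motif matches. B2m lies at chr2:122147437-122147736 (plus strand), Tap1 at chr17:34187306-34187605 (plus strand), Psma2 at chr13:14612992-14613291 (plus strand) and Ubd at chr17:37193642-37193941 (plus strand).
B2m: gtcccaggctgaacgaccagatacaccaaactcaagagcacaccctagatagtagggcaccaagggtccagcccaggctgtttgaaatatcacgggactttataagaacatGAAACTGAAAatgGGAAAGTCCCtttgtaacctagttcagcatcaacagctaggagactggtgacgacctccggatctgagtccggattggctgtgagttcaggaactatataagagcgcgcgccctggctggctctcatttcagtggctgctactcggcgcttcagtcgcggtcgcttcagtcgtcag
Tap1: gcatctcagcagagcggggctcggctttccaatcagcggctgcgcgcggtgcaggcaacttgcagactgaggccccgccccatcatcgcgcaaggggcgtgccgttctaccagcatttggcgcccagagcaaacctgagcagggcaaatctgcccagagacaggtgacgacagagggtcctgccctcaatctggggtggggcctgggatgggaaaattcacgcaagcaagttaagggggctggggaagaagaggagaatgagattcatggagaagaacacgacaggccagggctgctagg
Psma2: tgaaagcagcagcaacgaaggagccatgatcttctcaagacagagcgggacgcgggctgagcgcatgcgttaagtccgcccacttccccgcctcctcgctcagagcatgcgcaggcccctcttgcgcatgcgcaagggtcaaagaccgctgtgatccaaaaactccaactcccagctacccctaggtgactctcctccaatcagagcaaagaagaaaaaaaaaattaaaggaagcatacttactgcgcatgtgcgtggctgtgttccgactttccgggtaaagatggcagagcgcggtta
Ubd: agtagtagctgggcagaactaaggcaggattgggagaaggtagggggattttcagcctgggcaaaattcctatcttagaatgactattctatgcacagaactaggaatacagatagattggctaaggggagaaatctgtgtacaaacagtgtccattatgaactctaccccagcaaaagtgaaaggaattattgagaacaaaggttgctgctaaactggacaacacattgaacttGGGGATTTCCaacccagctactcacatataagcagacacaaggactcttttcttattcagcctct

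Tap1 and Psmb9 are divergent neighbours. The Psmb9 window, chr17:34187281-34187580 on the minus strand, shares 275 bases with the Tap1 window, and the start sites are 226 bases apart. 3 motifs were searched on both strands: the interferon-stimulated response element core (GAAA, any 2 bases, then GAAA again), the interferon-gamma-activated site (TTCNNNGAA) and the NF-kappaB motif. The B2m window holds the interferon element as GAAACTGAAA, starting 139 bases before the start site, and next to it an NF-kappaB match on the opposite strand, read as GGAAAGTCCC on the strand shown. The Ubd window holds the NF-kappaB match GGGGATTTCC, starting 15 bases before the start site. The Tap1, Psmb9 and Psma2 windows hold no match. Over all 32851 RefSeq promoters of 300 bases, 3.44% hold the interferon element, 8.3% the interferon-gamma site, 8.46% the NF-kappaB motif and 18.9% any of the 3. A match describes letters and is no evidence of binding. Only these letter patterns within the 300 bases were sought, so a window without a match is no evidence that such a site is absent.

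The 6 genes differed in how far their group means ranged over the 7 AOM groups. H2-T24 ranged most, with a group mean of 639 ± 399 CPM in wild-type lesions, the highest, and of 82.1 ± 29.3 CPM in wild-type tumours, the lowest, a ratio of 7.78. Psmb9 spanned a ratio of 5.91 and was highest in lesions of mice given cromolyn with AOM (2889.8 ± 409 CPM) and lowest in sash tumours (489 ± 294 CPM). B2m spanned 4.06, with wild-type lesions at 48749 ± 3149 CPM above all and sash tumours at 12014 ± 2595 CPM below all. Ubd spanned 3.85, and every neighbouring pair of groups in its order overlapped. Tap1 spanned 3.28 and likewise had no gap between neighbouring groups. Psma2 varied least, by a ratio of 2.34. Its order followed the sets of samples: the sash and wild-type tumours and the sash and wild-type lesions averaged 9557 to 10849.9 CPM, and the 3 groups of the cromolyn experiment 4629 to 5595 CPM, and no library of the first 4 groups overlapped a library of the other 3.

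**Figure D1:**
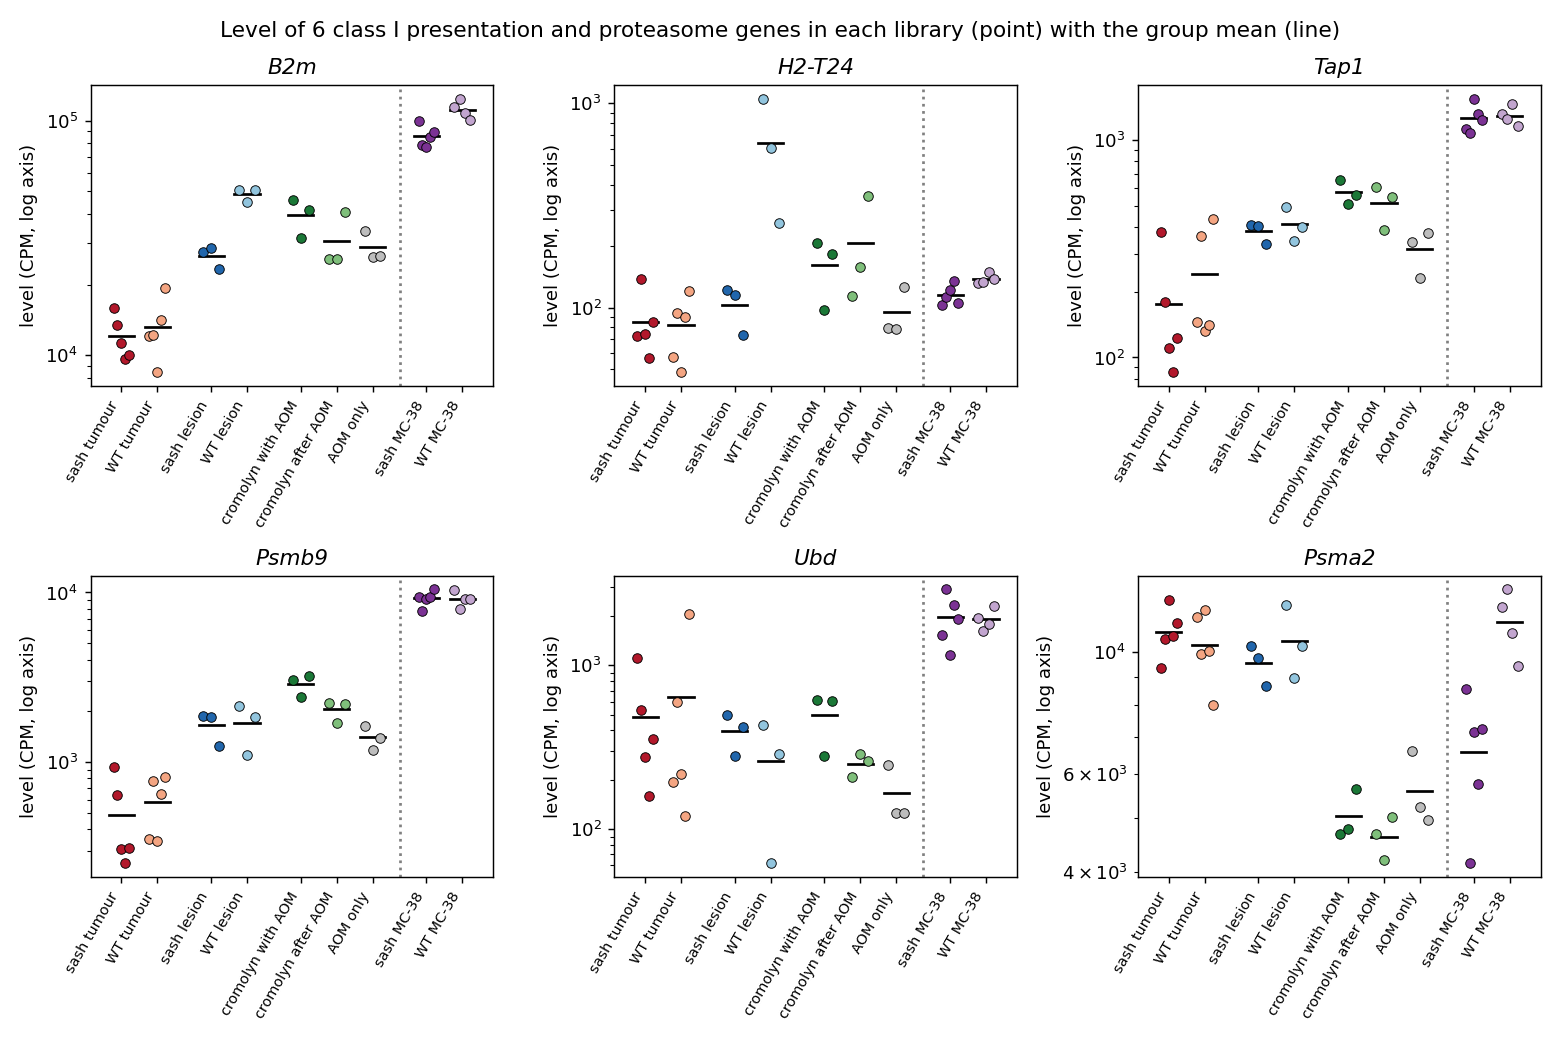
Levels of the 6 genes in CPM on a log axis, 1 point per library and a bar for the group mean, with the MC-38 groups, which were scaled separately, right of the dotted line. B2m and H2-T24 stand highest among the AOM groups in wild-type lesions, Psmb9 is lowest in the tumours, and Psma2 is lower in the 3 groups of the cromolyn experiment than in the other AOM groups.

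The order of the groups had few gaps. B2m separated both tumour groups from all lesions: the lowest lesion library had 23247 CPM and the highest tumour library 19275 CPM. Psmb9 showed gaps below the lesions given cromolyn with AOM and below the AOM-only lesions. For H2-T24, Tap1 and Ubd no neighbouring groups were apart.

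In preneoplastic lesions, where the effect of the sash allele on early lesions was asked, the class I light chain and a class I-like heavy chain were lower in sash mice: B2m fell 1.88-fold and H2-T24 6.40-fold. These 2 of 6 genes compare with 2.32% of the 775 genes tested that passed as lower, 18 genes, and 2.84% that passed in either direction, by edgeR's quasi-likelihood test with Benjamini-Hochberg adjustment at a threshold of 0.05. The transporter, proteasome and FAT10 genes did not pass.

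B2m had 27406, 28615 and 23247 CPM in the 3 sash lesions, against 50697, 45116 and 50434 CPM in the 3 wild-type lesions. Every sash library lay below every wild-type library, as held for 14.2% of all genes, with a log2 difference of −0.91 (SE 0.18, adjusted p = 0.0401, edgeR). H2-T24, the class I-like heavy chain, had 122, 115 and 73.1 CPM in sash lesions, against 1054, 604 and 259 CPM in wild-type lesions, which rest on 68, 83 and 62 counts in sash lesions and 596, 399 and 275 counts in wild-type lesions. All 3 sash values were again below all 3 wild-type values, which themselves differed 4.07-fold, and the log2 difference was −2.68 (SE 0.50, adjusted p = 0.0317, edgeR). Single H2 values are uncertain, because near-identical genes of the family can share reads.

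The 4 other genes did not pass between genotypes. Tap1, the transporter subunit, averaged 381 ± 42.2 CPM in sash and 411 ± 74.8 CPM in wild-type lesions (log2 difference −0.14, 95% interval −0.64 to 0.36). Psmb9, the immunoproteasome subunit, averaged 1648 ± 345 CPM in sash and 1698 ± 537 CPM in wild-type lesions (log2 difference −0.077, 95% interval −0.69 to 0.54). Psma2, the shared alpha subunit, averaged 9557 ± 803 CPM in sash and 10462 ± 1613 CPM in wild-type lesions (−0.16, −0.59 to 0.27). Ubd had 494, 279 and 419 CPM in sash lesions and 429.7, 62.1 and 288 CPM in wild-type lesions, a wide and overlapping spread (0.58, −0.71 to 1.88).

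Other lists of genes describe the same lesions. Of 13 tested genes of the type I interferon response, 6 passed as lower in sash lesions and none as higher, with a median log2 difference of −1.28, beside 0.051 over all 775 genes. They include Oas3, an oligoadenylate synthetase that senses viral RNA (−2.99, SE 0.34, adjusted p = 0.0102), Irf7, a transcription factor of the interferon response (−1.89, SE 0.25, adjusted p = 0.0144), Bst2, which tethers viruses to cells (−1.67, SE 0.25, adjusted p = 0.0144), and Oas2, another synthetase (−3.36, SE 0.56, adjusted p = 0.0159). Of 19 other class I presentation genes tested, none passed, with a median of −0.11, and of 31 other proteasome genes none passed, with a median of −0.16. Of 14 interferon-gamma response genes none passed, and 12 lay above 0. In the TNF and NF-kappaB list the inhibitor Nfkbia passed as higher in sash lesions (0.85, SE 0.18, adjusted p = 0.0476).

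Markers of B cells were also lower in sash lesions. Their summed level over 7 genes was 42.4 to 238 CPM in sash lesions and 671 to 2426 CPM in wild-type lesions. Of 6 B cell genes tested 3 passed as lower in sash lesions, Ms4a1 and Cd22 among them. So did 1 of 3 epithelial genes and 1 of 2 mast cell genes tested. T cell markers summed to 482 to 671 CPM in sash and 673 to 1429 CPM in wild-type lesions, and CD8 and natural killer markers to 324 to 703 CPM in sash and 333 to 541 CPM in wild-type lesions. Type I interferon genes summed to 6599.9 to 7427 CPM in sash and 12709.6 to 19188 CPM in wild-type lesions, and interferon-gamma response genes to 14694 to 17228 CPM in sash and 11885 to 12518 CPM in wild-type lesions. The part of these lists in the falls of B2m and H2-T24 was not tested.

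No label pairs the lesion libraries, but same-numbered ones deviated alike from their group means, with correlations of 0.16 to 0.51 in these same data. With that number as a block 84 genes passed in place of 22, B2m and H2-T24 among them, so that count rests on a pairing the labels do not give. The call of B2m was lost (adjusted p 0.0697 to 0.169) when any 1 library other than wild-type replicate 3 was left out, and that of H2-T24 without sash replicate 2 (adjusted p = 0.124) or 3 (adjusted p = 0.10). The differences themselves ranged from −0.95 to −0.84 for B2m and from −3.06 to −2.05 for H2-T24. The count of genes that passed was 0 without sash replicate 2, 13 without sash replicate 3 and 68 without wild-type replicate 3. B2m was also lost when the libraries were scaled to the 2 reference genes on the panel (adjusted p = 0.999) and when all 25 AOM libraries were fitted together (adjusted p = 0.0567). Its difference stayed within −0.95 to −0.84 there too. The 2 reference genes, Rpl13a and Tfrc, themselves summed to 48362 to 127762 CPM in sash lesions and 60336 to 126727 CPM in wild-type lesions.

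A further comparison was made within the wild type, between the lesions collected beside the sash lesions and the AOM-only lesions of the cromolyn experiment, which carry the same labelled treatment but belong to different sets of samples. The same 3 wild-type lesion libraries entered the comparison with sash lesions, with the opposite sign, so a shift of them enters both. 3 of the 6 were higher in the wild-type lesions of the first set, beside 8.66% of 762 genes tested that passed as higher. H2-T24 was 6.53-fold higher (log2 difference 2.71, SE 0.48, adjusted p = 0.00876, edgeR), with AOM-only values of 79.4, 79.0 and 126 CPM. B2m was 1.63-fold higher (0.71, SE 0.18, adjusted p = 0.0323, edgeR), with AOM-only values of 33859.7, 26279.9 and 26533 CPM. Psma2 was 1.81-fold higher (0.86, SE 0.19, adjusted p = 0.0213, edgeR), with 12168, 8961 and 10257 CPM in the wild-type lesions and 6607, 5225 and 4953 CPM in the AOM-only lesions.

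Values of the sash lesions can be read beside those of the AOM-only lesions: B2m averaged 26423 ± 2816 CPM in sash lesions and 28891 ± 4305 CPM in AOM-only lesions, and H2-T24 103 ± 26.4 CPM in sash lesions and 94.7 ± 26.9 CPM in AOM-only lesions. No test was made between these 2 groups, which differ in set and in genotype. In the comparison of the 2 wild-type sets 10 of 13 type I interferon genes passed as higher in the set with the sash lesions, with a median of 1.64 beside 0.0088 over all genes, among them Oas3 (3.66, SE 0.32, adjusted p = 0.00043), Irf7 (2.34, SE 0.24, adjusted p = 0.000492), Oasl1, a relative of the synthetases (2.60, SE 0.27, adjusted p = 0.00052), and Oas2 (4.24, SE 0.54, adjusted p = 0.00208). Of 30 other proteasome genes, 4 passed as higher by edgeR, beside 8.66% of all 762 genes. That list had a median of 0.13, with 19 genes above 0 and 11 below. The 4 are core subunits: Psmb7 (1.81, SE 0.18, adjusted p = 0.000492), Psmb4 (1.02, SE 0.22, adjusted p = 0.0195), Psma6 (0.70, SE 0.17, adjusted p = 0.0283) and Psmb3 (1.13, SE 0.31, adjusted p = 0.0433). Of 19 other class I genes, H2-D1, H2-T22 and H2-Q6 were higher, and none lower, with a list median of 0.13. Without any 1 of the AOM-only libraries, or without wild-type replicate 1, the calls of B2m and Psma2 were lost (adjusted p = 0.0628 to 0.153 for B2m and 0.0525 to 0.109 for Psma2). B2m was also lost without wild-type replicate 2 (adjusted p = 0.0507), and H2-T24 without AOM-only replicate 1 or 2 (adjusted p = 0.0724 and 0.0551). The 3 differences stayed positive in all of these, and the count of genes that passed ranged from 11 to 268 as single libraries were left out, against 119 with all. B2m and Psma2 were also lost with reference gene scaling (adjusted p = 0.699 and 0.572), and B2m with 1 fit of all AOM libraries (adjusted p = 0.0635).

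Markers of other cells differed between these sets as well. Fibroblast markers summed to 1675 to 5936 CPM in the wild-type lesions and 11054 to 12749.9 CPM in the AOM-only lesions, and B cell markers to 671 to 2426 CPM in the wild-type lesions and 145 to 346 CPM in the AOM-only lesions. Of 6 B cell genes tested 4 passed as higher in the wild-type lesions. So did 1 of 3 epithelial genes and the 1 dendritic cell gene tested. In turn 1 of 3 fibroblast genes, 1 of 5 macrophage genes, 1 of 10 T cell genes and the 1 endothelial gene passed as lower. The 1 endothelial gene had 67.2 to 141 CPM in the wild-type lesions and 196 to 213 CPM in the AOM-only lesions, and macrophage markers summed to 550.0 to 718 CPM in the wild-type lesions and 836 to 1093 CPM in the AOM-only lesions. Their part in the differences of H2-T24, B2m and Psma2 was not tested.

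Psmb9, the immunoproteasome subunit, was 2.04-fold higher in lesions of mice given cromolyn together with AOM than in AOM-only lesions, and it had the smallest p of all 768 genes tested. Psmb9 was the 1 gene that passed as higher, 0.130% of those tested. Psmb9 had 3048, 2426 and 3196 CPM in the 3 lesions given cromolyn with AOM, against 1624, 1179 and 1391 CPM in the 3 AOM-only lesions. The groups did not overlap, as held for 13.8% of all genes in that direction, and the log2 difference was 1.03 (SE 0.16, adjusted p = 0.0219, edgeR).

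Tap1 and Ubd did not overlap between these groups either but missed the threshold. Tap1, whose start site neighbours that of Psmb9, had 658, 507 and 559 CPM in lesions given cromolyn with AOM, against 341, 231 and 375 CPM with AOM only (log2 difference 0.85, SE 0.21, adjusted p = 0.0711, edgeR). Ubd had 612, 281 and 609 CPM in lesions given cromolyn with AOM, against 245, 126 and 126 CPM with AOM only (1.58, SE 0.34, adjusted p = 0.0651, edgeR). DESeq2 called both (adjusted p = 0.0143 and 0.000856) and called 39 genes in all. The chains of class I molecules did not pass: B2m differed by 0.44 (−0.021 to 0.90) and H2-T24 by 0.76 (−0.16 to 1.67). Psma2 averaged 5035 ± 532 CPM with cromolyn and 5595 ± 887 CPM with AOM only, a log2 difference of −0.17 (−0.48 to 0.14).

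With cromolyn given after AOM, none of the 6 genes passed, where 4.82% of genes passed in either direction, 37 genes, and 1 to 8 when any 1 library was left out. Psmb9 had 2242, 1705 and 2197 CPM in lesions given cromolyn after AOM, again above every AOM-only library (0.52, SE 0.16, adjusted p = 0.0890, edgeR). Tap1 had 609, 387 and 546 CPM, likewise above every AOM-only library (0.68, SE 0.21, adjusted p = 0.0890, edgeR). In the same comparison 13.8% of all genes were higher without overlap. Psmb9 passed when scaled to library totals (adjusted p = 0.0380), and both genes passed with the replicate number as a block (adjusted p = 0.0498 for each). H2-T24 had 114, 158 and 352 CPM, with 1 high library (1.11, 0.20 to 2.02), and Ubd 208, 286 and 259 CPM (0.58, −0.18 to 1.34). B2m had 25769.6, 25623 and 40843 CPM (0.061, −0.40 to 0.52), and Psma2 4669, 4198 and 5019 CPM (−0.30, −0.61 to 0.012). Both cromolyn groups were set against the same 3 AOM-only libraries, so a shift of those libraries enters both.

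The 2 timings were compared directly. Psmb9 was higher without overlap in lesions given cromolyn with AOM than in those given it after AOM, as 6.25% of all genes were, with a log2 difference of 0.51 (SE 0.16, adjusted p = 0.338, edgeR). It did not pass, and 0 of the 768 genes (0%) did by edgeR, where 64 had an unadjusted p under 0.05 and DESeq2 called 6. Ubd differed by 1.00 (0.27 to 1.73), B2m by 0.38 (−0.081 to 0.84), Tap1 by 0.17 (−0.27 to 0.61), Psma2 by 0.13 (−0.18 to 0.44) and H2-T24 by −0.35 (−1.23 to 0.53).

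Around these genes, Psmb10, a further inducible subunit of the immunoproteasome, averaged 13284 ± 1033 CPM with cromolyn given with AOM and 9846 ± 907 CPM with AOM only (0.42, SE 0.14, adjusted p = 0.182), and did not pass. The standard subunits that the inducible ones replace did not pass either: Psmb6, which Psmb9 replaces, differed by 0.18, Psmb7 by −0.18 and Psmb5 by −0.031. These subunits were named for their roles after their values had been seen. Psmb8, the third inducible subunit, and Tap2, the partner of Tap1, had too few counts to test, at no more than 6.95 and 4.17 CPM in any AOM library. Counts on a targeted panel do not show by themselves how much of either RNA the tissue held. None of 30 other proteasome genes and none of 19 other class I genes passed with either timing. Of 14 interferon-gamma response genes none passed with cromolyn given with AOM, and 1, the feedback inhibitor Socs1, passed as higher with cromolyn given after AOM (1.53, SE 0.37, adjusted p = 0.0411). Of 13 type I interferon genes, all 13 lay above 0 with cromolyn given with AOM and none passed. With cromolyn given after AOM, 12 lay above 0 and Zbp1, a sensor of nucleic acids, passed (1.18, SE 0.21, adjusted p = 0.0257).

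Marker sums of other cells are set beside Psmb9. CD8 and natural killer markers (16 genes on the panel, none at 0 in all libraries) summed to 779 to 889 CPM with cromolyn given with AOM, 399 to 685 CPM with cromolyn given after AOM and 355 to 505 CPM with AOM only. B cell markers summed to 454 to 2099 CPM with cromolyn given with AOM, 305 to 1869.8 CPM with cromolyn given after AOM and 145 to 346 CPM with AOM only. Epithelial markers summed to 21995 to 50270.1 CPM with cromolyn given with AOM, 20991 to 38035 CPM with cromolyn given after AOM and 47531 to 62294 CPM with AOM only. Fibroblast markers summed to 6785 to 10822 CPM with cromolyn given with AOM, 7162 to 8309 CPM with cromolyn given after AOM and 11054 to 12749.9 CPM with AOM only. The 1 endothelial gene had 128 to 173 CPM with cromolyn given with AOM, 126 to 189 CPM with cromolyn given after AOM and 196 to 213 CPM with AOM only. No gene of these lists passed with either timing. Their part in the higher level of Psmb9 was not tested. The call of Psmb9 was lost without AOM-only replicate 2 (adjusted p = 0.178), AOM-only replicate 3 (adjusted p = 0.0973) or replicate 1 of cromolyn with AOM (adjusted p = 0.118), while the difference stayed at 0.91 to 1.18. It was also lost when all 25 AOM libraries were fitted together (adjusted p = 0.791) and when libraries were scaled to the 2 reference genes on the panel (adjusted p = 0.0902).

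**Figure D2:**
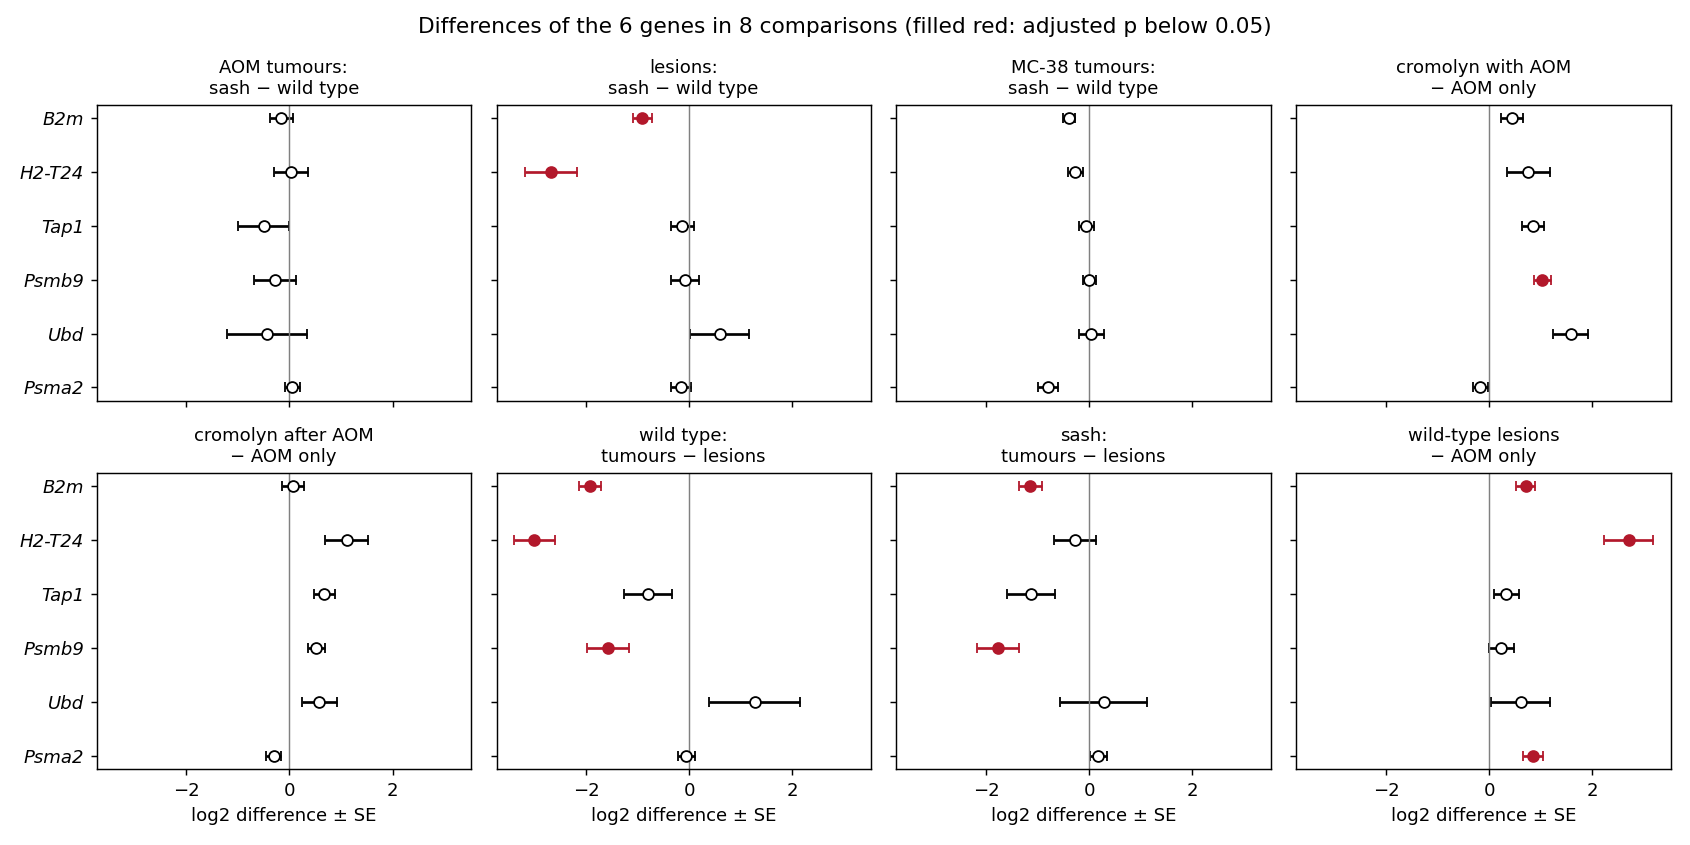
Log2 difference of each of the 6 genes in 8 comparisons, with its standard error as a bar, and filled red points for differences that passed at an adjusted p under 0.05 (edgeR). B2m and H2-T24 pass below 0 in the lesions of sash against wild-type mice, Psmb9 passes above 0 with cromolyn given with AOM, and none of the 6 passes between genotypes in AOM or MC-38 tumours.

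In AOM tumours, the same genotype comparison at the late stage, none of the 6 genes passed between sash and wild-type mice, and 0 of 797 genes (0%) passed by edgeR, while 159 had an unadjusted p under 0.05 and DESeq2 called 82. B2m had 15829.8, 13407, 11212, 9604 and 10019.8 CPM in sash tumours, against 12034, 12155, 8448, 14106 and 19275 CPM in wild-type tumours (−0.16, −0.65 to 0.33). H2-T24 had 72.5, 138, 74.6, 56.5 and 85.1 CPM in sash tumours, against 57.5, 94.4, 48.3, 89.9 and 121 CPM in wild-type tumours (0.033, −0.69 to 0.76). For both genes the intervals leave out the lesion estimates of −0.91 and −2.68, which have a spread of their own. The interval of B2m in lesions, −1.33 to −0.49, overlaps its interval in tumours. The difference between the stages is tested itself below, and neither gene passed by edgeR. The groups overlapped for all 6 genes, where 5.40% of all genes did not overlap.

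The interferon-inducible genes varied widely within each genotype. Psmb9 had 939, 637, 305, 253 and 309 CPM in sash tumours, against 351, 774, 340.1, 644 and 811 CPM in wild-type tumours (−0.29, −1.18 to 0.61). Tap1 had 378, 179.7, 111, 85.5 and 123 CPM in sash tumours, against 146, 361, 132, 142 and 432 CPM in wild-type tumours (−0.50, −1.57 to 0.57). Ubd had 1109, 536, 275, 159 and 354 CPM in sash tumours, against 194, 598, 218, 121 and 2058 CPM in wild-type tumours (−0.43, −2.14 to 1.27). Sash replicate 1 was the highest sash tumour for all 3, and wild-type replicate 5 the highest wild-type tumour for all 3. Without sash replicate 1 the difference of Tap1 became −0.97, and without wild-type replicate 5 that of Ubd changed sign to 0.73, neither passing. Psma2 varied little, at 9339, 10572, 12396, 10672 and 11271 CPM in sash tumours and 11551, 9907, 11892, 10055 and 8002 CPM in wild-type tumours (0.058, −0.25 to 0.37). In the other lists, 14 of 19 class I genes and 11 of 13 type I interferon genes lay below 0 in sash tumours, with medians of −0.29 and −0.31, beside −0.045 over all genes.

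The difference between the genotype effects at the 2 stages was tested itself. For H2-T24 the sash effect was 2.72 log2 units higher in tumours than in lesions (SE 0.59, adjusted p = 0.0641, edgeR), short of the threshold, and for B2m 0.78 (SE 0.32, adjusted p = 0.280, edgeR). By edgeR 0 of 848 genes (0%) passed, where 128 had an unadjusted p under 0.05 and DESeq2 called 20, H2-T24 among them (adjusted p = 0.00193). H2-T24 also passed when all AOM libraries were fitted together (adjusted p = 0.0346), without wild-type lesion replicate 3 (adjusted p = 0.0163) and without wild-type tumour replicate 5 (adjusted p = 0.0284). For the other 4 genes it lay between −0.99 for Ubd and 0.24 for Psma2.

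B2m and Psmb9 were lower in tumours than in lesions in both genotypes, and H2-T24 in wild type. Stage here joins age, the number of AOM injections and the time since AOM, which cannot be told apart. B2m fell 3.80-fold in wild-type tumours against wild-type lesions (−1.93, SE 0.22, adjusted p = 2.06e-05, edgeR) and 2.21-fold in sash tumours against sash lesions (−1.15, SE 0.22, adjusted p = 0.000771, edgeR). Psmb9 fell 2.99-fold in wild type (−1.58, SE 0.41, adjusted p = 0.00861, edgeR) and 3.39-fold in sash (−1.76, SE 0.41, adjusted p = 0.00288, edgeR). H2-T24 fell 8.01-fold in wild type (−3.00, SE 0.41, adjusted p = 8.22e-05, edgeR), and in sash its difference was −0.28 (−1.16 to 0.60). These 3 falls in wild type and 2 in sash stand beside 17.6% and 23.6% of 848 genes that passed as lower. All of them are measured against the lesions of the first set only, where H2-T24 averaged 639 ± 399 CPM in wild type. Those wild-type lesion libraries also entered the genotype and set comparisons of lesions, so a shift of them enters all of these. The AOM-only wild-type lesions averaged 94.7 ± 26.9 CPM of H2-T24, 28891 ± 4305 CPM of B2m and 1398 ± 222 CPM of Psmb9. Wild-type tumours averaged 82.1 ± 29.3, 13204 ± 3961 and 584 ± 226 CPM, and no test was made between these groups. Tap1 differed by −0.80 in wild type and −1.13 in sash (adjusted p = 0.185 and 0.0571, edgeR), and passed in sash without sash tumour replicate 1 (adjusted p = 0.00604), by DESeq2 (adjusted p = 0.0407) and with 1 fit of all AOM libraries (adjusted p = 0.0212). In wild type the call of Psmb9 was lost without wild-type lesion replicate 1 (adjusted p = 0.0528).

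Psma2 and Ubd did not pass between stages. Psma2 differed by −0.064 in wild type (−0.41 to 0.28) and 0.17 in sash (−0.18 to 0.52), and Ubd by 1.26 in wild type (−0.61 to 3.13) and 0.28 in sash (−1.51 to 2.07). Among 19 other class I genes, 6 were lower and 1 higher in wild-type tumours, and 7 lower and 2 higher in sash tumours. In wild type the lower ones included H2-Q1 (−2.60, SE 0.45, adjusted p = 0.000645), H2-T22 (−1.09, SE 0.26, adjusted p = 0.00584), H2-Q2 (−1.82, SE 0.45, adjusted p = 0.00637) and H2-M3, which presents bacterial peptides (−1.03, SE 0.26, adjusted p = 0.00809). In sash the lower ones included H2-Q1 (−3.49, SE 0.46, adjusted p = 3.81e-05), H2-Q2 (−2.75, SE 0.45, adjusted p = 0.000249), H2-T22 (−1.10, SE 0.26, adjusted p = 0.00348) and Tapbpl, a relative of the chaperone tapasin (−0.76, SE 0.20, adjusted p = 0.00620). Among 31 other proteasome genes, 1 was higher and 1 lower in wild type, and 11 were higher and 2 lower in sash, where 19.5% of all genes passed as higher in wild type and 23.9% in sash. In both genotypes Psme2, a subunit of the interferon-inducible proteasome activator, was lower (−0.67, SE 0.20, adjusted p = 0.0191 in wild type, −0.52, SE 0.20, adjusted p = 0.0442 in sash) and Psmd1, a subunit of the regulatory particle, higher (0.59, SE 0.15, adjusted p = 0.00858 in wild type, 0.63, SE 0.15, adjusted p = 0.00347 in sash). In sash Psmc4 (0.60, SE 0.14, adjusted p = 0.00319) and Psmd12 (0.55, SE 0.15, adjusted p = 0.00649), also of the regulatory particle, were higher, and Psmb10 was the other that was lower (−1.02, SE 0.29, adjusted p = 0.00906). The value of Psme2 in sash was added for its role after it had been seen.

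Lists of other cells and of interferon targets differed between stages as well. CD8 and natural killer markers summed to 133 to 195 CPM in sash tumours and 324 to 703 CPM in sash lesions, and to 114 to 254 CPM in wild-type tumours and 333 to 541 CPM in wild-type lesions. Of 7 such genes tested, 5 were lower in sash and 3 in wild type, Nkg7 and Cd8a in both. Of 13 type I interferon genes, 10 were lower in wild-type tumours and 4 in sash tumours. Epithelial markers summed to 24925 to 30490.2 CPM in sash tumours and 55848 to 90094 CPM in sash lesions, and to 25882 to 49823 CPM in wild-type tumours and 50767 to 61522 CPM in wild-type lesions. The 3 epithelial genes did not move together: in each genotype 2 passed as lower in tumours and 1 lay above 0, so the sum does not stand for all of them. Neutrophil markers summed to 367 to 735 CPM in sash tumours and 7.16 to 15.3 CPM in sash lesions, and to 62.0 to 257 CPM in wild-type tumours and 6.06 to 8.84 CPM in wild-type lesions, and all 3 such genes tested were higher in tumours of both genotypes. B cell markers summed to a median of 20.7 CPM in sash tumours and 98.6 CPM in sash lesions, with overlap, and to 21.7 to 641 CPM in wild-type tumours and 671 to 2426 CPM in wild-type lesions, and 5 of 6 such genes were lower in wild type and none in sash. Their part in the lower levels of B2m, Psmb9 and H2-T24 was not tested.

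In MC-38 tumours, where the genotype was taken as the host's, none of the 6 genes passed, beside 1.26% of 714 genes that did. Every sash value of Psma2 and of B2m nevertheless lay below every wild-type value, as held for 4.06% of all genes. Psma2 had 8569, 4145, 7168, 5753 and 7238 CPM in the 5 sash hosts, against 12083, 12982, 10829 and 9411 CPM in the 4 wild-type hosts (−0.80, SE 0.20, adjusted p = 0.0667, edgeR). B2m had 99387, 79028, 77253, 85021 and 89429.7 CPM in sash hosts, against 114137, 124319, 107559 and 100693 CPM in wild-type hosts (−0.39, SE 0.12, adjusted p = 0.120, edgeR). DESeq2 called both (adjusted p = 0.00752 and 0.0418) among 50 genes, and edgeR called Psma2 without sash replicate 1 (adjusted p = 0.0486).

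The other 4 genes overlapped between hosts. Psmb9 averaged 9219 ± 964 CPM in sash and 9159.6 ± 976 CPM in wild-type hosts (−0.0046, −0.28 to 0.27). Tap1 averaged 1261 ± 187 CPM in sash and 1296 ± 127 CPM in wild-type hosts (−0.056, −0.36 to 0.25). Both signs turned under other scalings, within 0.045 of 0. H2-T24 averaged 116 ± 13.4 CPM in sash and 138 ± 8.32 CPM in wild-type hosts (−0.27, −0.57 to 0.035), and Ubd 1969 ± 684 CPM in sash and 1909 ± 283 CPM in wild-type hosts (0.034, −0.50 to 0.57). Of 29 other proteasome genes, 24 lay below 0 in sash hosts and none passed, with a median of −0.34 beside −0.011 over all genes. Of 13 other class I genes, 10 lay below 0 and none passed. Ciita, which drives class II genes and belongs to the interferon-gamma list, was higher in sash hosts (0.84, SE 0.17, adjusted p = 0.0422). The interferon-gamma list summed to 30940.4 to 50322 CPM in sash and 52074 to 61800.2 CPM in wild-type hosts, without overlap, the chemokine Cxcl10 making up most of it. That sum does not stand for the list: of 16 genes tested, 10 lay below 0 and 6 above, with a median of −0.047. Only Ciita passed. Fibroblast markers summed to 7761 to 30036 CPM in sash and 13159.9 to 21709.9 CPM in wild-type hosts, T cell markers to 2471 to 4588 CPM in sash and 2175 to 3669 CPM in wild-type hosts, and CD8 and natural killer markers to 5265 to 10644 CPM in sash and 5777 to 9364 CPM in wild-type hosts. Their part in the levels of Psma2 and B2m was not tested.

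**Figure D3:**
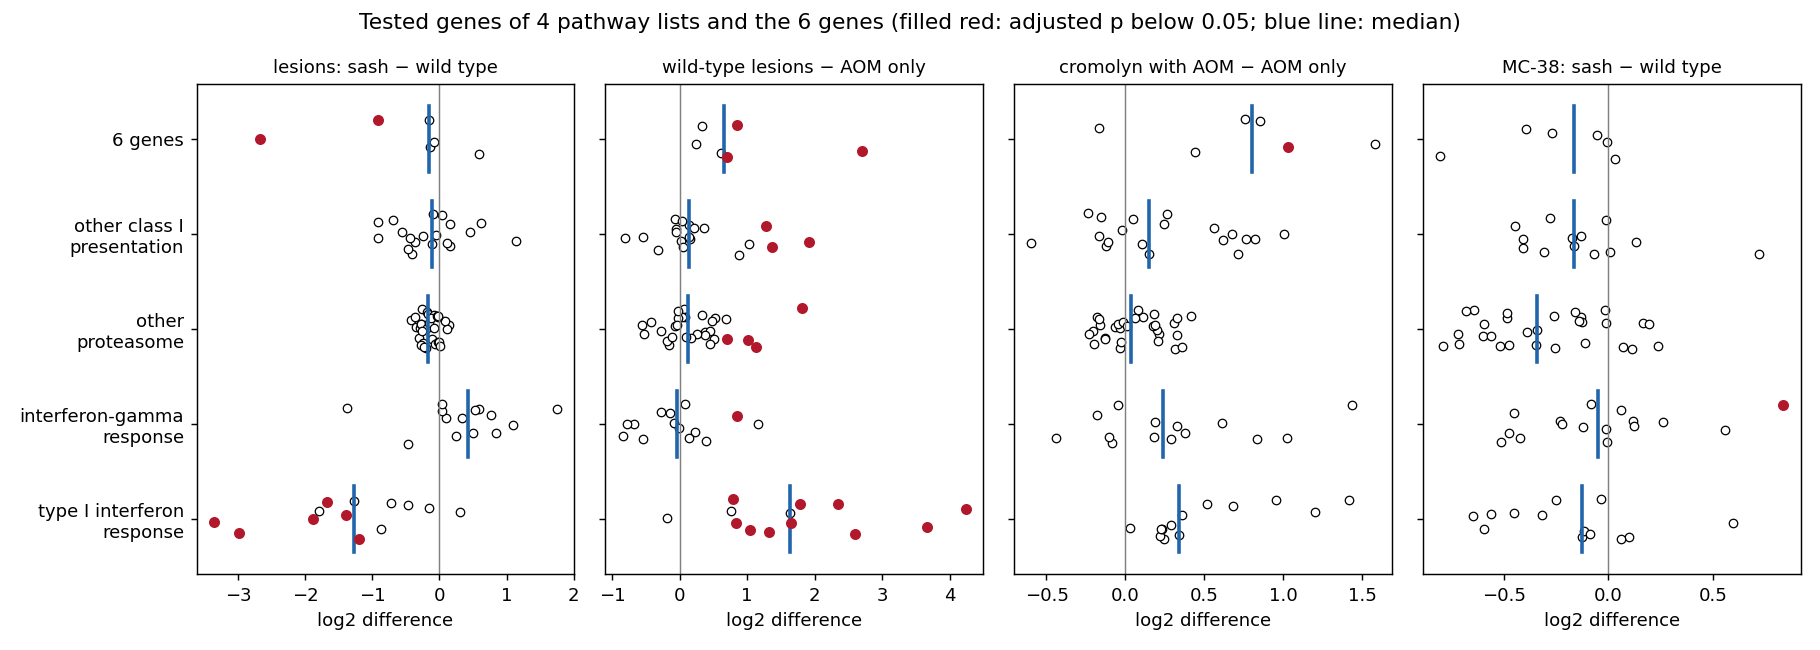
Log2 differences of tested genes, 1 point per gene, in 5 rows (the 6 genes, other class I genes, other proteasome genes, interferon-gamma response and type I interferon response) and 4 panels (lesions of sash against wild type, wild-type lesions against AOM only, cromolyn with AOM against AOM only, MC-38 tumours in sash against wild-type hosts). Filled red points passed, blue lines are medians and the x ranges differ between panels. 12 of 13 type I interferon genes lie below 0 in sash lesions, and 12 of 13 above 0 in wild-type lesions against AOM only. Both of these panels use the same wild-type lesion libraries, with opposite sign, so they are not independent.

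The profiles were compared by the root mean square difference between 2 genes' log2 levels, each centred on its mean over the 25 AOM libraries, among 806 genes with at least 10 counts on average. A small value means that 2 genes varied alike over these libraries. Genes of 1 library share its depth and its mix of cells, so the measure only describes them. Among the 6 genes, Tap1 and Psmb9 were closest (0.43), and Tap1 was the most alike of all 806 genes to Psmb9. B2m came next with Tap1 (0.49) and Psmb9 (0.50), then with H2-T24 (0.68). Psma2 and Ubd stood apart, each at least 1.10 from every other of the 6.

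The genes most like B2m were Sp100 (0.33), Zbtb32 (0.38) and H2-K1 (0.39). Sp100 is an interferon-induced nuclear body protein, and H2-K1 a classical class I heavy chain. The genes most like H2-T24 were Oas3 (0.54), Sp100 (0.55) and Oas2 (0.60). Those most like Tap1 included H2-Q4 (0.36) and H2-K1 (0.43). Those most like Psmb9 were Tap1 (0.43), Nkg7 (0.49) and H2-T10 (0.50), Nkg7 being a granule protein of cytotoxic lymphocytes. Those most like Psma2 were Psmb4 (0.22), Epcam (0.24) and Psmd10 (0.27). Psmb4 and Psmd10 belong to the proteasome or its assembly, and Epcam is an epithelial adhesion protein. Ubd had no close partner, its nearest being Tnfrsf4 (0.80), Slc22a4 (0.88) and Ifi204 (0.91).

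**Figure D4:**
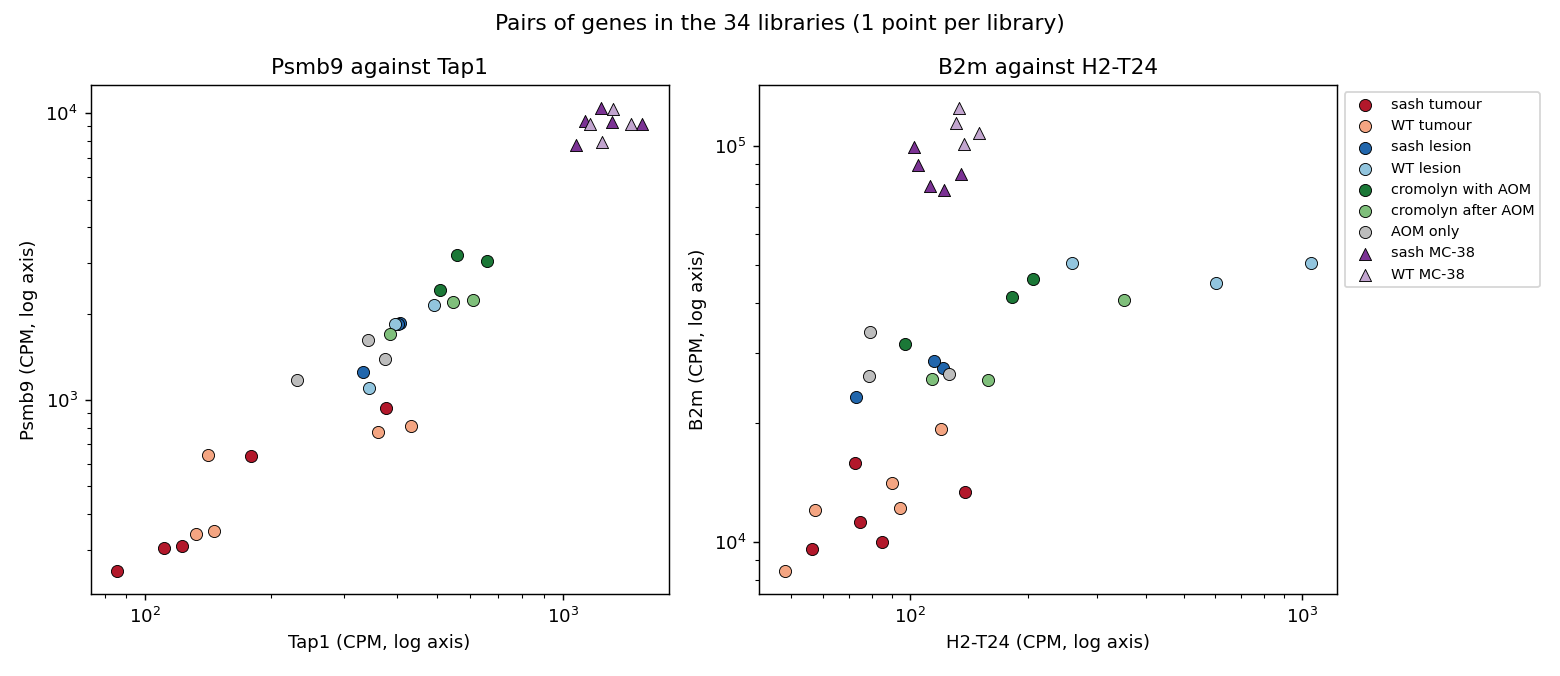
Levels in CPM on log axes in all 34 libraries, 1 point per library coloured by group, with circles for AOM and triangles for MC-38 libraries, which were scaled separately. Psmb9 is plotted against Tap1 in the first panel and B2m against H2-T24 in the second. Among AOM libraries the tumours lie at the low end of Psmb9 and of B2m, and 2 of the 3 wild-type lesions at the high end of H2-T24.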

How the data were processed

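Per the labels' protocols, RNA of colon tissue or tumours was sequenced on a MiSeq with a QIAseq targeted panel. The 2 deposited tables hold whole-number counts per gene made by the authors, 1 for the 25 AOM libraries and 1 for the 9 MC-38 libraries. Per the submitters' processing notes, the genome build was mm9 and DESeq2 was used. For the aligner and the counter, the sources used here name no tool, nor do they say if reads or their molecular tags were counted. 2 of the 36 samples, wild-type MC-38 replicate 2 and sash MC-38 replicate 3, were not analysed here. The 5 control entries among the 993 of each table were at 0 in every library and were left out.

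The 6 members and all gene lists were chosen with earlier results of these data known. The test was the quasi-likelihood test in edgeR 4.0.16 (with limma 3.58.1, R 4.3.3), after TMM scaling, a low-count filter (filterByExpr, minimum count 10, minimum total 15) and Benjamini-Hochberg adjustment over all genes tested at a threshold of 0.05. Intervals are 95% intervals of the fitted log2 difference, from its SE and the test's own degrees of freedom. The 3 cromolyn groups were fitted together, as were the 4 groups of the stage and interaction tests, and the other comparisons on their own groups. From each list, up to 4 genes with the smallest p among those that passed were named, and genes named for another reason are marked as such. Profiles were compared by the 3 most alike genes. A few genes that these rules name are not reported here. No pair of replicates agreed within sampling noise. The labels pair no libraries. Between sash and wild-type lesions the deviations of same-numbered libraries correlated at 0.16 to 0.51 in the 3 pairs, and in no other comparison did every pair pass 0.1. The alternatives were DESeq2 1.42.0, other scalings, no low-count filter, the replicate number as a block, 1 fit of all AOM libraries, and leaving out libraries. The scripts were tested on simulated data with 200 changed genes per comparison.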

Additional observations from a re-analysis of the deposited data

Results flagged for a closer look

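Of 24 groups of 4 or more libraries checked over the 6 genes, 1 held a library far from the others. Ubd had 2058 CPM in wild-type tumour replicate 5 and 121 to 598 CPM in the 4 remaining ones of that group. Chance alone flags about 1 in 20 groups. The difference of Ubd between sash and wild-type tumours was −0.43 on the log2 scale with this library and 0.73 without it, and neither passed.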

How the results depend on the processing

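Over 918 recomputed differences of the 6 genes, 823 kept their direction and their side of the threshold, 20 newly passed, 29 no longer passed and 46 changed sign. None of the sign changes concerned a difference that had passed. Counts of genes that passed moved more. DESeq2 called 82 genes in tumours between genotypes, against 0 by edgeR, 70 in lesions, against 22, 39 with cromolyn given with AOM, against 2, 6 between timings, against 0, 50 in MC-38 tumours, against 9, and 20 for the interaction, against 0. Scaling to library totals gave 2 in tumours, 18 with cromolyn given with AOM and 3 between timings. Scaling to the 2 reference genes gave 1 with cromolyn given with AOM, 6 with cromolyn given after AOM, against 37, 4 between timings, 3 in MC-38 tumours, 132 between stages in wild type, against 314, and 235 in sash, against 403. Without the low-count filter 36 genes passed in lesions. With 1 fit of all AOM libraries the counts were 88 in tumours, 0 and 0 with cromolyn given with and after AOM, and 4 for the interaction. Without wild-type tumours 2 and 4, the 2 with the highest Kit and chosen with earlier results known, 6 genes passed in tumours and 8 for the interaction.

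Only between sash and wild-type lesions did every pair of same-numbered libraries deviate alike. The replicate block gave 84 genes there, 7 with cromolyn given with AOM, 21 with cromolyn given after AOM and 3 in MC-38 tumours. By the labels such libraries share only a number in every comparison, and outside the lesions they correlated at −0.45 to 0.64. Under the block Tap1 passed with cromolyn given with AOM (adjusted p = 0.0437) and, like Psmb9, with cromolyn given after AOM (adjusted p = 0.0498 for both), and it changed no other call of the 6 genes.

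With single libraries left out, the counts ranged from 0 to 17 in tumours, from 0 to 68 in lesions, from 0 to 15 and from 1 to 8 with cromolyn given with and after AOM, from 0 to 1 between timings, from 3 to 17 in MC-38 tumours, from 183 to 367 and from 298 to 389 between stages in wild type and sash, from 0 to 10 for the interaction and from 11 to 268 between the 2 sets, against 119. The cause of these changes was not tested.

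Sign changes under other scalings, filters or blocks were of differences that had not passed. They gave 0.11 for Ubd in tumours (block). With reference scaling they gave −0.025 for B2m, −0.20 for Tap1 and −0.27 for Psma2 between timings, −0.013 for Ubd in MC-38 tumours, and −0.12 for Tap1 and −0.20 for Psmb9 between the sets. In MC-38 tumours Psmb9 was 0.0068 with DESeq2's size factors, 0.045 with totals and 0.0093 without the filter, Tap1 was 0.0032 with totals and Ubd −0.33 with the block. Psma2 was 0.15 between stages in wild type with totals, and the interaction of Psmb9 was 0.034 without wild-type tumours 2 and 4. Reference scaling moved the median of all genes by 0.12 in tumours, −0.26 and 0.12 with cromolyn given with and after AOM, −0.38 between timings and −0.44 between sets. Library totals moved it by 0.11 with cromolyn given after AOM and by 0.21 and 0.18 between stages in wild type and sash.

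With single libraries left out, differences that changed sign ranged from −0.30 to 0.0016 for B2m, from −0.21 to 0.19 for H2-T24, from −0.037 to 0.12 for Psma2 and from −0.96 to 0.73 for Ubd in tumours. In lesions they ranged from −0.20 to 0.052 for Tap1, from −0.25 to 0.18 for Psmb9 and from −0.20 to 0.0058 for Psma2. They ranged from −0.16 to 0.22 for B2m with cromolyn given after AOM and from −0.65 to 0.25 for H2-T24 between timings. In MC-38 tumours they ranged from −0.13 to 0.016 for Tap1, from −0.053 to 0.068 for Psmb9 and from −0.13 to 0.18 for Ubd. Between stages they ranged from −0.14 to 0.091 for Psma2 in wild type and from −0.26 to 0.52 for Ubd in sash, and for the interaction from −0.58 to 0.019 for Psmb9 and from −1.58 to 0.19 for Ubd.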
